A study of Homo sapiens with 24 samples.

Results

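The plasminogen activation system was followed through 8 genes: PLAU, PLAT, PLAUR, ANXA2, S100A10, SERPINB2, SERPINE2 and SERPINB5. They were chosen by symbol for their known roles in urokinase and plasmin activity at the cell surface, with earlier results of these data known. Each of them had 1 row among the 60448 gene rows of the deposited tables, of which 19230 were protein-coding. All 8 passed the filter on low counts in every comparison. RNA was sequenced in 24 libraries of BPH-1 and RWPE-1, human prostate epithelial lines immortalized by SV40 and HPV18, respectively. Of these, 4 were vector control (3 BPH-1, 1 RWPE-1), 7 were C-Raf parental cells (3 BPH-1, 4 RWPE-1) and 13 were metastasis-derived lines (6 BPH-1, 7 RWPE-1). Vector control cells carried the luciferase reporter construct ILYW, and C-Raf parental cells expressed wild-type C-Raf from an Ub promoter. In BPH-1 the labels name secreted Gaussia luciferase (sGluc) for vector control and C-Raf parental libraries alike, and not for the metastasis-derived lines. Metastasis-derived lines were C-Raf cells from tumors resected from immune-deficient NSG mice after intracardiac injection and then cultured. These lines thus also passed through a mouse and a tumor, which the parental cells did not. RWPE-1 cells grew in keratinocyte serum-free medium with bovine pituitary extract and EGF, whereas the BPH-1 labels name DMEM with serum and the study's methods name RPMI. Cell line and medium cannot be told apart here. The labels do not say whether replicates were separate cultures, so p-values measure the spread between these libraries, which may be technical.

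Plasminogen activators cut the circulating zymogen plasminogen into plasmin, a broad protease that degrades fibrin, matrix proteins and the precursors of other proteases. Urokinase (PLAU) does this at the cell surface when bound to its receptor (PLAUR), and tissue-type activator (PLAT) is best known for acting on fibrin. Annexin A2 (ANXA2) with its partner S100A10 docks plasminogen and tissue-type activator on the membrane. Serpins close the system: SERPINB2 (plasminogen activator inhibitor type 2) and SERPINE2 (protease nexin) trap the activators, whereas SERPINB5 (maspin) is a serpin of epithelial cells without ordinary inhibitory activity. PLAU and PLAUR are known target genes of the MAPK pathway, in which C-Raf is a kinase.

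Levels are given in CPM, the counts of a gene relative to all protein-coding counts of its library, scaled by TMM. The protein-coding depth was 20567375 to 42007105 counts in 21 libraries but 111170 to 464691 in lines R071, R074 and bone R075 of BPH-1, whose counts came at 93.3% to 97.5% from the small cytoplasmic RNA RN7SL1. RN7SL1 also took 13.1%, 30.3% and 4.60% of the counts of the deeper BPH-1 metastasis-derived lines R069, R072 and thymus R075, and no more than 0.00932% elsewhere. Protein-coding genes held 70.0%, 38.9% and 83.8% of the counts of R069, R072 and thymus R075, and 97.2% to 98.2% in the other deeper libraries. The low-depth lines were left out of the tests and are given separately. The lines thymus R075 and bone R075 are named by their titles, whereas the treatment label of each names the other site. All 8 epithelial markers examined averaged 1 CPM or more in each of the 6 groups, taken over the deeper libraries. Their summed level was 6124 to 6417 CPM before metastasis in BPH-1 and 11745 to 15721 CPM in the deeper BPH-1 metastasis-derived lines. In RWPE-1 the sum was 13432 CPM in the vector control, 4711 to 9979 CPM in parental cells and 3138 to 8941 CPM in metastasis-derived lines. From vector control through parental cells to the deeper metastasis-derived lines of BPH-1, KRT14 averaged 147, 304 and 4396 CPM and KRT8 averaged 1275, 924 and 115 CPM. Fibroblast and haematopoietic marker sums stayed at or below 71.04 and 147 CPM in all 6 groups, led by COL1A1 and CD68. Only 1 to 3 of the 8 fibroblast markers and 2 of the 8 haematopoietic markers averaged 1 CPM or more in any group. The sum of 6 endothelial markers reached 39.2 CPM in the BPH-1 metastasis-derived lines, led by VWF, and at most 1.61 CPM in the other groups. The part of these differences in the results below was not tested. The markers are human genes counted against hg38, so they cannot show whether mouse cells were present in the metastasis-derived lines.

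The promoter of SERPINB2 is shown as that of the member with the largest change, and 4 members are shown for a match to the pattern TGANTCA. AP-1 is the Fos and Jun transcription factor complex that acts downstream of MAPK signaling. TGANTCA, with any base at N, is a loose form of its recognition sequence, and as a pattern reads the same on both strands. The match was TGAGTCA in ANXA2 and PLAUR and TGAATCA in SERPINB5 and SERPINB2. Windows of 250 bases before the RefSeq start sites (GRCh38.p14) were searched for 7 of the members, PLAT not included, which gave 9 windows. TGANTCA stood in 4 of them, each of a different gene, and in 6.57% of 35116 such windows of all genes. The ETS-type letters AGGAAG, counted on both strands, stood in 5 of the 9 windows and in 28.7% of all windows, and CCGGAAG in 0 of the 9 and in 8.52% of all. The match is in capitals, and its first base lay 127 bases before the start in ANXA2, 146 in SERPINB5, 102 in SERPINB2 and 186 in PLAUR. These RefSeq starts differ from the outermost gene bounds of GENCODE 29 given below, which lie further upstream, so the 4 stretches are inside those bounds. The windows of ANXA2, SERPINB5, SERPINB2 and PLAUR hold 57, 197, 5 and 250 bases of GENCODE exons, respectively. PLAU and SERPINE2, which rose more with C-Raf in BPH-1 than SERPINB5 and ANXA2 did, had no TGANTCA in these windows, nor had S100A10. A match describes the letters only. The ANXA2 stretch is chr15:60398095-60398124 on the minus strand, the SERPINB5 stretch chr18:63476801-63476830 on the plus strand and the PLAUR stretch chr19:43670337-43670366 on the minus strand. The SERPINB2 promoter is chr18:63887455-63887699 on the plus strand and holds no exon base of the GENCODE 29 annotation.
ANXA2: gcgggccggggTGAGTCAcccctgacttgg
SERPINB5: taacttcagccTGAATCAtttctttcaatt
PLAUR: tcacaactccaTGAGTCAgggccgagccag
SERPINB2 promoter: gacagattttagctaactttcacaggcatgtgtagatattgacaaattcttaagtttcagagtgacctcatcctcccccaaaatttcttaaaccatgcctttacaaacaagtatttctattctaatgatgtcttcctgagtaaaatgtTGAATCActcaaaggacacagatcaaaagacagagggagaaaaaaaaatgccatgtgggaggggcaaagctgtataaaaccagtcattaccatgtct

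In BPH-1, both activators, the urokinase receptor, ANXA2 and the serpins SERPINB2, SERPINE2 and SERPINB5 were higher with C-Raf. Of the 8 genes, 7 rose and 0 fell from vector control to C-Raf parental cells (edgeR quasi-likelihood test, Benjamini-Hochberg adjusted p below 0.05, 3 against 3 libraries), where 30.4% of the 13233 genes tested rose, 29.4% fell and 59.8% changed in either direction. In these 7 genes every C-Raf parental library lay above every vector control library. Groups did not overlap for 63.5% of all genes tested. The median log2 fold change was 1.11 over the 8 genes and -0.0019 over all genes tested. Since the 8 genes were chosen with earlier results of these data known, these counts and medians are a description.

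**Figure D1:**
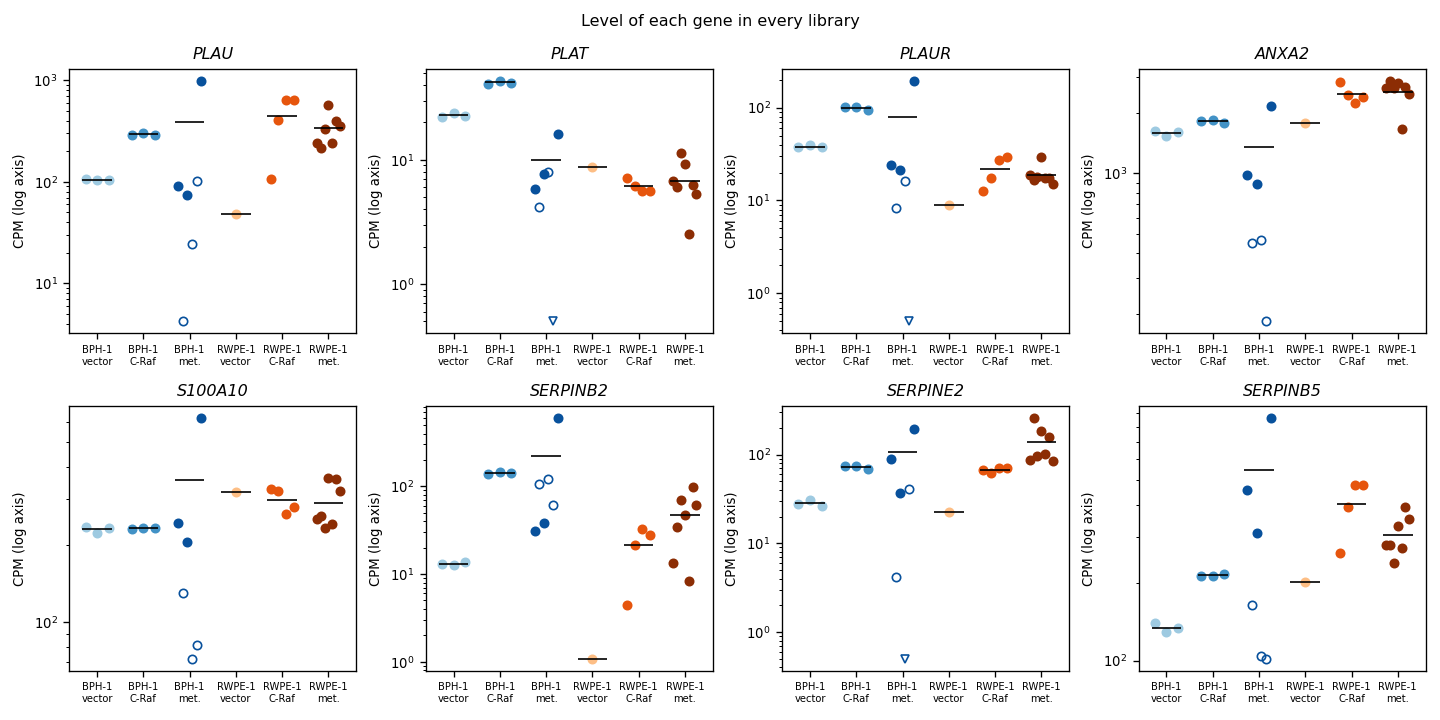
Level of each gene in every library in CPM on log axes, by cell line and stage. Filled points are libraries of ordinary depth, open points are the 3 low-depth BPH-1 lines, triangles near the bottom stand for a count of 0, and bars are group means without the low-depth lines. In BPH-1, C-Raf parental libraries separate from vector control in every panel but that of S100A10, and the BPH-1 metastasis-derived lines spread widely.

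Urokinase, PLAU (ENSG00000122861, chr10:73909177-73917497 on the plus strand), stood at 107, 105 and 104 CPM in the 3 BPH-1 vector control libraries and at 292, 300.1 and 290 CPM in the C-Raf parental libraries. The fitted log2 fold change was 1.46 ± 0.03 (SE, adjusted p = 4.79e-26 by edgeR). Replicates of both groups differed by far less than the groups did. Since the labels do not say whether replicates were separate cultures, these p-values may measure technical spread only. PLAU shares 916 exon bases with C10orf55 on the opposite strand, whose counts came to 1.00% of those of PLAU over all libraries, and whether counting used the strand is not given in the sources used here. PLAT (ENSG00000104368, chr8:42175233-42207724, minus strand) moved from 22.2, 23.6 and 22.5 CPM to 41.0, 43.2 and 41.9 CPM, a log2 fold change of 0.87 ± 0.04 (adjusted p = 3.79e-16 by edgeR). The urokinase receptor gene PLAUR (ENSG00000011422, chr19:43646095-43670547, minus strand) stood at 37.2, 39.6 and 37.2 CPM without and at 101, 101 and 94.7 CPM with C-Raf. Its log2 fold change of 1.36 ± 0.04 (adjusted p = 1.42e-22 by edgeR) was close to that of its ligand.

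The plasminogen-docking pair responded least. ANXA2 (ENSG00000182718, chr15:60347134-60402883, minus strand) was measured at 1616, 1527 and 1598 CPM in vector control and at 1815, 1837 and 1785 CPM in C-Raf parental cells, with a log2 fold change of 0.18 ± 0.03 (adjusted p = 1.51e-06 by edgeR). Its counts can be split with its processed copies, of which ANXA2P2 held 6394 counts over all 24 libraries. S100A10 (ENSG00000197747, chr1:151982915-151994390, minus strand) stood at 234, 223 and 232 CPM and at 229.6, 233 and 232 CPM. These ranges overlapped, and the log2 fold change was -0.01 ± 0.03 (adjusted p = 0.859 by edgeR).

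SERPINB2 (ENSG00000197632, chr18:63871692-63903890, plus strand) showed the largest change of the 8, 12.9, 12.8 and 13.7 CPM in vector control against 139.7, 144 and 141 CPM in C-Raf parental cells. The log2 fold change was 3.41 ± 0.04 (adjusted p = 2.10e-30 by edgeR), and it ranked 18 by size of rise among the 13233 genes tested. Protease nexin, SERPINE2 (ENSG00000135919, chr2:223975112-224039319, minus strand), went from 28.0, 30.7 and 26.6 CPM to 74.4, 74.7 and 69.1 CPM, a log2 fold change of 1.34 ± 0.04 (adjusted p = 1.67e-20 by edgeR). Activators and their serpin inhibitors were therefore higher in the same libraries. SERPINB5 (ENSG00000206075, chr18:63476761-63505085, plus strand) stood at 139.8, 128 and 134 CPM and at 213, 212 and 217 CPM, with a log2 fold change of 0.66 ± 0.03 (adjusted p = 4.28e-17 by edgeR). When the 3 deeper metastasis-derived lines were added to the fit, so that their spread entered the error, the fold changes stayed near these values but 0 of the 8 genes passed, and 377 genes in all did.

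RWPE-1 had 1 vector control library, which was assumed to vary like the 4 C-Raf parental libraries. The deposited tables split this comparison: the vector control and C-Raf parental library 1 came in one table and C-Raf parental libraries 2 to 4 in another. With edgeR, 0 of the 13477 genes tested passed an adjusted p of 0.05 (0% called), 1854 had an unadjusted p below 0.05, and DESeq2 called 747. Among the 8 genes 0 passed with edgeR, 4 had an unadjusted p below 0.05 (SERPINE2, SERPINB2, PLAU and SERPINB5), and DESeq2 called 2, SERPINB2 and SERPINE2. For 7 of the 8 genes the vector control lay outside the range of the C-Raf parental libraries, which held for 59.9% of all genes tested.

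PLAU stood at 47.9 CPM in the RWPE-1 vector control and at 105, 403, 647 and 634 CPM in C-Raf parental libraries 1 to 4. The library of the same table as the control was 2.20-fold above it, and the mean of the others was 11.7-fold above it. The fitted log2 fold change was 3.23 ± 1.14 (adjusted p = 0.341 by edgeR). SERPINB2 was at 1.09 CPM in the control and at 4.43, 21.2, 32.2 and 28.0 CPM, or 4.08-fold higher within the table and 24.99-fold across tables (log2 fold change 4.31 ± 1.32, adjusted p = 0.313 by edgeR). PLAUR had 8.86 CPM in the control and 12.6, 17.4, 27.2 and 29.5 CPM with C-Raf, giving 1.30 ± 0.54 on the log2 scale (adjusted p = 0.372 by edgeR). C-Raf parental library 1 was thus the lowest of the 4 for the activator, its receptor and SERPINB2, yet above the control in each. SERPINB5 followed the same order, with 200.5 CPM in the control and 260.4, 392, 476 and 475 CPM with C-Raf (log2 fold change 1.01 ± 0.38, adjusted p = 0.351 by edgeR).

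SERPINE2 was the even one: 22.3 CPM in the control and 67.6, 62.6, 70.6 and 70.7 CPM with C-Raf, 3.03-fold within the table and 3.05-fold across tables. The log2 fold change was 1.61 ± 0.13 (unadjusted p = 3.56e-05, adjusted p = 0.0761 by edgeR). ANXA2 had 1779 CPM without and 2841, 2469, 2250.4 and 2389 CPM with C-Raf (0.49 ± 0.22 on the log2 scale, adjusted p = 0.392 by edgeR). S100A10 stood at 320.9 CPM without and 331, 324, 264 and 280.3 CPM with C-Raf, so the control fell within their range. PLAT was the 1 member with every C-Raf library below the control, 8.77 CPM in the control and 7.18, 6.18, 5.57 and 5.60 CPM with C-Raf (-0.51 ± 0.21 on the log2 scale, adjusted p = 0.378 by edgeR). Without C-Raf parental library 1, 4 of the 8 genes passed (SERPINB2 4.65 with adjusted p = 0.0224, PLAU 3.56 with 0.0275, SERPINE2 1.62 with 0.0224 and SERPINB5 1.17 with 0.0478, all by edgeR), and 743 genes in all. That fit compares libraries of different tables only, so table and C-Raf cannot be told apart in it.

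**Figure D2:**
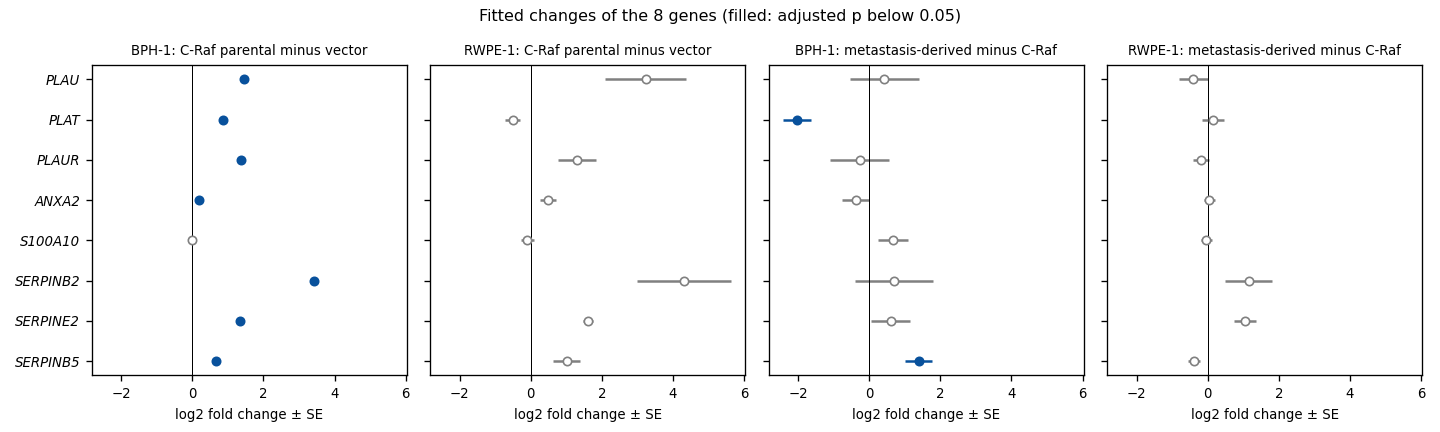
Fitted log2 fold changes of the 8 genes with their standard errors (horizontal lines) in 4 comparisons. Filled points passed an adjusted p of 0.05: 7 genes for C-Raf in BPH-1, 0 for C-Raf in RWPE-1 (single control library), PLAT and SERPINB5 for the 3 deeper BPH-1 metastasis-derived lines, and 0 for the RWPE-1 metastasis-derived lines.

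The C-Raf parental cells of the 2 lines differed in 6 of the 8 genes (edgeR, 4 RWPE-1 against 3 BPH-1 libraries), where 73.8% of the 13533 genes tested differed, 37.5% with RWPE-1 higher and 36.3% with it lower. BPH-1 had more PLAT (42.04 ± 1.10 against 6.13 ± 0.753 CPM, mean ± SD), PLAUR (98.8 ± 3.58 against 21.7 ± 8.02 CPM) and SERPINB2 (142 ± 2.17 against 21.5 ± 12.2 CPM). The RWPE-1 minus BPH-1 log2 differences were -2.78 ± 0.10 for PLAT (adjusted p = 6.35e-07 by edgeR), -2.19 ± 0.28 for PLAUR (2.00e-04) and -2.73 ± 0.54 for SERPINB2 (0.00232). RWPE-1 had more SERPINB5 (0.90 ± 0.21, adjusted p = 0.00485), ANXA2 (0.45 ± 0.11, 0.00692) and S100A10 (0.36 ± 0.09, 0.00745 by edgeR). SERPINE2 was at 67.9 ± 3.80 CPM in RWPE-1 and 72.8 ± 3.20 CPM in BPH-1, a difference that did not pass (-0.11 ± 0.06, adjusted p = 0.167 by edgeR). PLAU was at 447 ± 254 and 294 ± 5.41 CPM and did not pass either (0.60 ± 0.53, adjusted p = 0.331 by edgeR), but passed at 0.93 (adjusted p = 0.00201) without RWPE-1 C-Raf parental library 1. Receptor and ligand were therefore ordered differently: PLAUR was higher in BPH-1 in all libraries, whereas PLAU overlapped. The 2 lines also came in separate tables and media.

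The 3 deeper BPH-1 metastasis-derived lines did not share one pattern. Thymus R075 was above the C-Raf parental mean in 7 of the 8 genes, R072 in 1 and R069 in 3. Against the 3 C-Raf parental libraries, 1 gene was higher, SERPINB5, and 1 lower, PLAT, where 20.9% and 16.8% of the 13455 genes tested were higher and lower and 37.7% changed in either direction (edgeR). On the TMM-scaled levels, groups did not overlap for these 2 genes, and for 59.8% of all genes tested. Metastasis-derived lines and parental cells of BPH-1 came in separate tables, so table and stage cannot be told apart.

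PLAT was measured at 5.87 CPM in R069, 7.66 CPM in R072 and 16.2 CPM in thymus R075, all below the 41.0 to 43.2 CPM of the parental cells. The log2 fold change was -2.04 ± 0.39 (adjusted p = 0.00951 by edgeR), and leaving out any 1 library kept it between -2.59 and -1.76. PLAT was thus also below the 22.2 to 23.6 CPM of the vector control cells. SERPINB5 stood at 455, 309.7 and 864 CPM, above the 212 to 217 CPM of the parental cells (1.39 ± 0.38 on the log2 scale, adjusted p = 0.0307 by edgeR). That call was lost without R069 (1.5, adjusted p = 0.0614) and without any 1 of the parental libraries 1, 2 and 3 (1.36, 1.36 and 1.37, adjusted p = 0.114, 0.114 and 0.110, respectively), with folds close to the full value. In R072 the rise of SERPINB5 rests on the TMM scaling, with 3924 counts among 20567375 protein-coding counts. C-Raf parental library 1 had 6845 among 28475322, a larger share before that scaling.

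PLAU split the lines: 90.1 CPM in R069, 73.7 CPM in R072 and 991 CPM in thymus R075, against 290 to 300.1 CPM in the parental cells. Thymus R075 was 3.37-fold above the parental mean, and R069 and R072 were 3.26-fold and 3.99-fold below it. PLAUR split the same way, at 24.05, 21.2 and 194 CPM against 94.7 to 101 CPM. SERPINB2 did too, at 31.1, 38.2 and 600.4 CPM against 139.7 to 144 CPM. In R069 and R072 the levels of PLAU and PLAUR thus lay below those of the vector control, whereas SERPINB2 stayed above its 12.8 to 13.7 CPM. ANXA2 stood at 982, 890 and 2171 CPM against 1785 to 1837 CPM. Without thymus R075, 6 genes passed: PLAU at -1.79 (adjusted p = 0.00210), PLAUR at -2.07 (0.00142), SERPINB2 at -1.98 (0.00171), ANXA2 at -0.90 (0.00956), PLAT at -2.59 (0.00142) and SERPINB5 at 0.89 (0.0188, all by edgeR). That fit called 6899 genes in all, against 5075 with the 3 lines.

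SERPINE2 was at 89.8, 37.0 and 194 CPM against 69.1 to 74.7 CPM in the parental cells, with a log2 fold change of 0.60 ± 0.54 (adjusted p = 0.408 by edgeR) that passed at 0.99 (adjusted p = 0.0402, among 8317 genes in all) without R072. S100A10 stood at 243, 205 and 622 CPM against 229.6 to 233 CPM (0.67 ± 0.43, adjusted p = 0.258 by edgeR). The log2 fold changes of PLAU (0.42 ± 0.97), PLAUR (-0.27 ± 0.84), SERPINB2 (0.69 ± 1.09) and ANXA2 (-0.38 ± 0.38) over all 3 lines did not pass, with adjusted p = 0.751, 0.815, 0.642 and 0.449 by edgeR. For PLAU, PLAUR and SERPINB2 the SE exceeded the change itself. Thymus R075 had the smallest RN7SL1 share of the 3 lines and R072 the largest. The part of that share in the split was not tested.

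**Figure D3:**
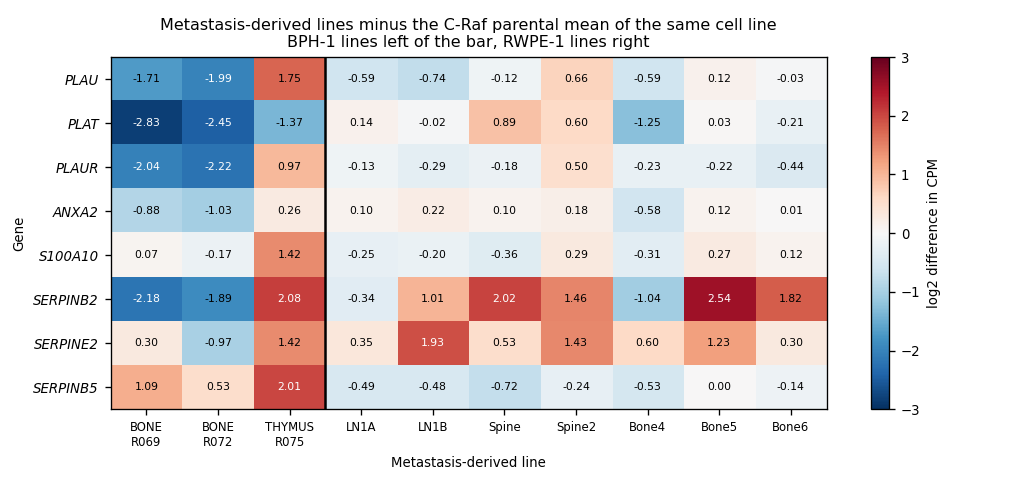
Log2 difference in CPM between each metastasis-derived line and the mean of the C-Raf parental libraries of its cell line, for the 8 genes, with BPH-1 lines left of the bar and RWPE-1 lines right of it. Thymus R075 stands above the parental mean in 7 genes while R069 and R072 differ from it by -1.71 and -1.99 for PLAU, and SERPINE2 lies above it in all 7 RWPE-1 lines.

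The low-depth BPH-1 lines R071, R074 and bone R075 had few counts of these genes. PLAU had 1, 3 and 5 counts, PLAUR 2, 2 and 0, and PLAT 1, 1 and 0. A count of 0 in bone R075 allows up to 61.0 CPM (3 counts), which is above every group mean of PLAT and, for PLAUR, below the 94.7 to 101 CPM of the BPH-1 C-Raf parental libraries. SERPINE2 had 1, 0 and 2 counts, of which the 0 in R074 allows up to 24.1 CPM. ANXA2 had the most counts, with 107, 58 and 9 or 449, 465.9 and 183 CPM. SERPINB2 had 25, 15 and 3 counts or 105, 120 and 61.0 CPM. Its exact Poisson 95% intervals, which cover counting error only, were 67.9 to 155, 67.4 to 199 and 12.6 to 178 CPM. S100A10 had 31, 9 and 4 counts or 130, 72.3 and 81.4 CPM. The upper limits of its intervals, 185, 137 and 208 CPM, lay below the parental libraries. SERPINB5 had 39, 13 and 5 counts or 164, 104 and 102 CPM, each below the parental libraries. Its intervals were 116 to 224, 55.6 to 179 and 33.0 to 237 CPM, so that of R074 alone lay below the parental level. ANXA2 in these lines lay below each of the 21 deeper libraries, whereas the SERPINB2 intervals of all 3 included the parental level. With these lines kept in, 1 gene passed, PLAT at -2.33 (adjusted p = 0.00789 by edgeR), among 2101 genes in all, and SERPINB5 was at 0.57 (adjusted p = 0.630 by edgeR).

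In RWPE-1, 7 metastasis-derived lines were set against 4 C-Raf parental libraries, and 0 of the 8 genes passed, where 0.0986% of the 13190 genes tested did (13 genes, edgeR). At an unadjusted p below 0.05 there were 2, SERPINE2 and SERPINB5, beside 1039 of all genes tested, and DESeq2 called 1, SERPINE2. The 8 genes had a median log2 fold change of 0.0029, against 0.0091 over all genes tested.

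SERPINE2 was the member whose groups did not overlap, as for 1.74% of all genes tested. It stood at 62.6 to 70.7 CPM in the parental libraries and at 86.4 and 258 CPM in lymph node lines LN1A and LN1B, 97.6 and 183 CPM in Spine and Spine2, and 103, 159 and 83.6 CPM in Bone4, Bone5 and Bone6. The log2 fold change was 1.04 ± 0.31 (unadjusted p = 0.00527, adjusted p = 0.331 by edgeR, and 0.0289 by DESeq2, which called 176 genes in all). It was higher in 7 of 7 lines than in any parental library. SERPINB2 ranged more widely, from 8.30 CPM in Bone4 and 13.5 CPM in LN1A through 34.6, 47.2, 60.6 and 69.6 CPM in LN1B, Spine2, Bone6 and Spine to 99.4 CPM in Bone5. Its parental range was 4.43 to 32.2 CPM, and the log2 fold change of 1.15 ± 0.66 did not pass (adjusted p = 0.706 by edgeR). It was 3.16 ± 1.08 within the first RWPE-1 table (adjusted p = 0.171) and 0.99 ± 0.65 within the second (adjusted p = 0.695 by edgeR). All 7 lines were above the 1.09 CPM of the vector control.

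PLAU was lowest in LN1B at 218 CPM and highest in Spine2 at 576 CPM, with a median of 335 CPM over the 7 lines, inside the parental range of 105 to 647 CPM. The log2 fold change was -0.40 ± 0.41 (adjusted p = 0.860 by edgeR). Within the first table, 3 lines against C-Raf parental library 1, it was 1.34 ± 0.26 (adjusted p = 0.0718), and PLAUR turned to 0.52 ± 0.10 (adjusted p = 0.0770 by edgeR). That fit differs from the full one in both its lines and its parental cells, and its parental side is 1 library. With any 1 library left out of the full comparison, PLAU stayed between -0.73 and -0.17. PLAUR ran from 15.1 CPM in Bone6 to 29.1 CPM in Spine2, with the other lines at 16.8 to 18.7 CPM, and gave -0.19 ± 0.23 overall (adjusted p = 0.893 by edgeR). PLAT ran from 2.54 CPM in Bone4 to 11.3 CPM in Spine (0.15 ± 0.31, adjusted p = 0.939 by edgeR). SERPINB5 was at 237 to 391 CPM in the lines and at 260.4 to 476 CPM in the parental cells (-0.39 ± 0.17, unadjusted p = 0.0469, adjusted p = 0.625 by edgeR). ANXA2 stood at 2489 to 2887 CPM in 6 lines and at 1660.2 CPM in Bone4 (0.04 ± 0.15, adjusted p = 0.965 by edgeR). S100A10 stood at 232 to 365 CPM (-0.04 ± 0.14, adjusted p = 0.972 by edgeR).

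The 3 bone lines of RWPE-1 did not separate from the 4 lymph node and spine lines in any of the 8 genes. With edgeR 0 of them passed, 0% of the 13159 genes tested did, 1173 genes had an unadjusted p below 0.05 and DESeq2 called 243. All 8 genes overlapped between the sites, where 10.5% of genes tested did not. PLAT had the lowest unadjusted p, with a bone minus other log2 difference of -0.85 ± 0.35 (unadjusted p = 0.0426, adjusted p = 0.548 by edgeR). Site and table nearly coincide here: all 3 bone lines and Spine2 came in the second RWPE-1 table, and LN1A, LN1B and Spine in the first. With a term for the table, the value of S100A10 turned from 0.14 to -0.27, neither of which passed. The PLAT means were 4.67 ± 1.91 CPM in bone and 8.32 ± 2.44 CPM in the other lines. Bone4 was low in PLAT, SERPINB2 and ANXA2, the lowest of the 7 lines in each.

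The change from parental cells to metastasis-derived lines differed between RWPE-1 and BPH-1 for 2 of the 8 genes (edgeR interaction term, 17 libraries), where 44.5% of the 14271 genes tested differed. For PLAT the RWPE-1 change minus the BPH-1 change was 2.22 ± 0.53 on the log2 scale (adjusted p = 0.00294 by edgeR). For SERPINB5 it was -1.74 ± 0.38 (adjusted p = 0.00170 by edgeR), a call that was lost with the low-depth lines kept in (-1.12, adjusted p = 0.191). PLAT fell in BPH-1 while its level in the RWPE-1 lines averaged 6.76 ± 2.83 CPM against 6.13 ± 0.753 CPM, and SERPINB5 rose in BPH-1 while it averaged 306 ± 54.0 CPM against 401 ± 102 CPM in RWPE-1. Without thymus R075, 5 genes passed, PLAUR at 1.93 (adjusted p = 7.08e-04), SERPINB2 at 3.18 (0.0191) and ANXA2 at 0.99 (0.00414, by edgeR) among them, and 7512 genes in all, against 6351 with thymus R075. Without R072, S100A10 passed as well, at -0.95 (adjusted p = 0.0317 by edgeR).

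With both cell lines in one fit of 21 libraries and a term for the cell line, 0 of the 8 genes passed for C-Raf against vector control, where 0.814% of the 15241 genes tested did (124 genes, edgeR). All 8 fold changes were above 0, as were those of 7492 of all genes tested. Of the 8, 5 had an unadjusted p below 0.05, beside 1434 of all genes tested, and DESeq2 called 5 (among 454 genes in all): PLAU, PLAUR, SERPINB2, SERPINE2 and SERPINB5. SERPINB2 came closest with edgeR, at 3.51 ± 0.84 (adjusted p = 0.0524), followed by SERPINE2 at 1.33 ± 0.37 (0.107) and PLAU at 2.06 ± 0.64 (0.182). For metastasis-derived against parental cells 0 of the 8 passed, where 2.53% of all genes did (386 genes, edgeR), and 1 had an unadjusted p below 0.05, beside 4165 of the 15241 genes tested. That gene was SERPINE2, at 0.88 ± 0.28 (adjusted p = 0.0910 by edgeR and 0.0262 by DESeq2, which called 952 genes in all).

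Across the 6 groups the order of the mean levels differed between members. PLAU ran from 47.9 CPM in the RWPE-1 vector control through 105 ± 1.51 CPM in the BPH-1 vector control and 294 ± 5.41 CPM in BPH-1 C-Raf parental cells to 337 ± 125, 385 ± 525 and 447 ± 254 CPM in the metastasis-derived lines of RWPE-1, the deeper ones of BPH-1 and the parental cells of RWPE-1. The last 4 groups overlapped, but the BPH-1 metastasis-derived mean rests on thymus R075, and as given above PLAU passed without that line and, between the parental cells, without RWPE-1 library 1. PLAUR and PLAT instead separated by cell line: PLAUR was 8.86 to 21.7 CPM in the RWPE-1 groups and 38.0 to 98.8 CPM in the BPH-1 groups, as group means, although R069 and R072 fell inside the 8.86 to 29.5 CPM of the single RWPE-1 libraries. PLAT had group means of 6.13 to 8.77 CPM in RWPE-1 and 9.91 to 42.04 CPM in BPH-1, with R069 and R072 again inside the range of the single RWPE-1 libraries, 2.54 to 11.3 CPM. SERPINB2 was lowest in the RWPE-1 vector control and next lowest in the BPH-1 vector control at 13.1 ± 0.481 CPM. RWPE-1 parental cells and their metastasis-derived lines followed at 21.5 ± 12.2 and 47.6 ± 32.2 CPM, which overlapped. SERPINE2 was lowest in both vector controls (22.3 and 28.4 ± 2.12 CPM), next in both C-Raf parental groups (67.9 ± 3.80 and 72.8 ± 3.20 CPM) and highest in the metastasis-derived groups (107 ± 80.1 CPM in BPH-1 and 139 ± 65.1 CPM in RWPE-1). The spread of the BPH-1 metastasis-derived lines covered the parental level. ANXA2 and S100A10 had group means of 1347 to 2550 CPM and 229.7 to 357 CPM, and their single deeper libraries ran from 890 to 2887 CPM and from 205 to 622 CPM.

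**Figure D4:**
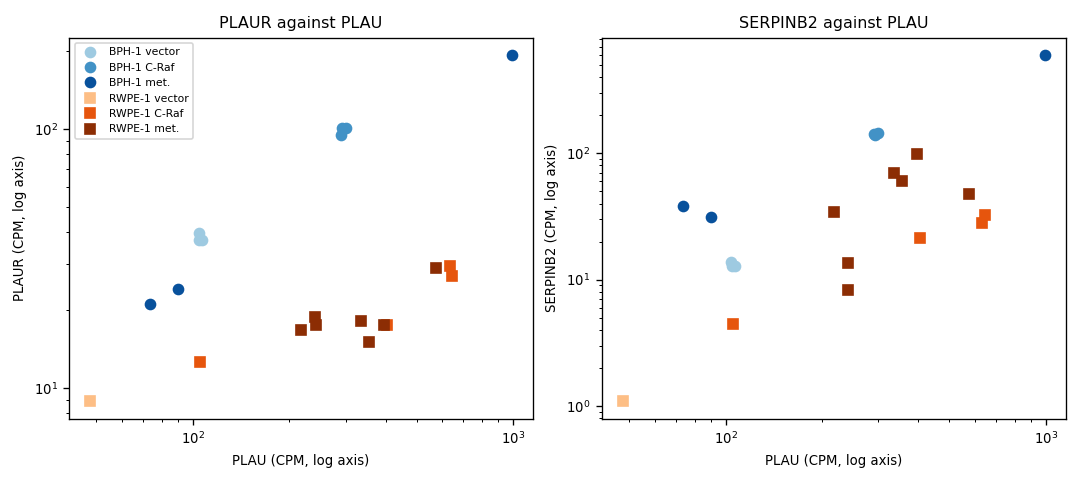
PLAUR (left) and SERPINB2 (right) against PLAU in the 21 deeper libraries, in CPM on log axes, with circles for BPH-1 and squares for RWPE-1. BPH-1 libraries lie above RWPE-1 libraries of like PLAU level in PLAUR, and thymus R075 is at the upper end in both panels with 991 CPM of PLAU.

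Genes whose log2 levels ran most like those of each member were taken by Pearson's r over the 21 deeper libraries among 12554 genes, as a description, since the libraries share cell lines, stages and tables. PLAU ran most like ZNF697 (r = 0.943) and the chemokine gene CXCL3 (0.936). For PLAUR these were CCDC127 (0.932) and DEDD2 (0.930), and for PLAT MANF, an endoplasmic reticulum stress protein (0.967), and C15orf39 (0.949). ANXA2 ran with ORMDL2 (0.967) and ZBTB9 (0.946), and S100A10 with DNAJB4 (0.890) and F2RL1, a receptor cut by trypsin-like proteases (0.881). SERPINB2 had the lowest leading value, with DIEXF (0.866) and the growth factor gene PGF (0.840). SERPINE2 ran with PVRL3 (0.911) and GNG11 (0.874), and SERPINB5 with TOR1AIP1 (0.951) and KLF7 (0.927).

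The rest of the system was followed through 26 further genes of plasminogen binding, other activating proteases, inhibitors and clearance receptors. Plasminogen itself (PLG) stayed at or below 0.0419 CPM in each of the 21 deeper libraries. For C-Raf in BPH-1, 19 of the 26 were tested, 8 were higher and 8 lower (edgeR), beside 30.4% and 29.4% of all genes tested. TFPI2, an inhibitor of plasmin, rose from 24.3 to 26.7 CPM in vector control to 183 to 193 CPM (2.84 ± 0.04 on the log2 scale, adjusted p = 1.03e-29), and the plasminogen receptor gene PLGRKT rose by 0.96 ± 0.06 (adjusted p = 8.93e-14 by edgeR). Among the endocytic receptors that clear inhibited urokinase, VLDLR fell by 0.73 ± 0.08 (adjusted p = 2.31e-08) and LRP1 fell by 0.35 ± 0.07 (adjusted p = 4.45e-05 by edgeR). The median log2 fold change was 0.0029 over these 19 genes. For C-Raf in RWPE-1, 0 of 19 passed and 4 had an unadjusted p below 0.05, beside 1854 of the 13477 genes tested. TFPI2 was at 23.9 CPM in that control and at 85.6 to 159 CPM in the C-Raf parental libraries.

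In the deeper BPH-1 metastasis-derived lines 2 of 19 were higher and 5 lower, beside 20.9% higher, 16.8% lower and 37.7% in either direction over all genes tested. AHNAK, a large scaffold protein that binds S100A10, rose by 3.41 ± 0.42 (adjusted p = 0.00289) and LRP1 by 3.19 ± 0.84 (adjusted p = 0.0271). PLGRKT fell by 2.09 ± 0.44 (adjusted p = 0.0132) and F12, coagulation factor XII, fell by 1.74 ± 0.25 (adjusted p = 0.00452, all by edgeR). The change in each of these 4 genes differed between RWPE-1 and BPH-1 (edgeR interaction, adjusted p = 3.90e-06 for AHNAK, 0.00272 for LRP1, 6.02e-04 for PLGRKT and 1.20e-05 for F12), and in all 9 of the 19 differed, 6 with the RWPE-1 change above and 3 with it below, near the 44.5% of all genes tested. Neither RWPE-1 metastasis comparison called any of the 19 with edgeR, with 3 (against parental cells) and 2 (between sites) at an unadjusted p below 0.05, beside 1039 of 13190 and 1173 of 13159 genes tested. Between the C-Raf parental cells of the 2 lines 7 were higher in RWPE-1, led by SERPINI1, an inhibitor of tissue-type activator (3.85 ± 0.25, adjusted p = 6.06e-06), and ITGB1, an integrin subunit (2.02 ± 0.07, adjusted p = 7.49e-07). Of all genes tested 37.5% were higher and 36.3% lower. Another 11 of the 19 were lower, led by PLGRKT (-1.57 ± 0.08, adjusted p = 2.97e-06) and ST14, the protease matriptase (-1.36 ± 0.05, adjusted p = 9.05e-07, all by edgeR). In the fit of both lines together 0 of 20 passed for C-Raf, with 3 at an unadjusted p below 0.05, beside 1434 of the 15241 genes tested. For metastasis-derived lines 1 of 20 fell, SPINT1, an inhibitor of matriptase (-0.43 ± 0.10, adjusted p = 0.0263 by edgeR), beside 116 of the 15241 genes tested, and 7 of 20 had an unadjusted p below 0.05, beside 4165. In bulk RNA, fewer cells that express a gene and less of its RNA per cell cannot be told apart.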

How the data were processed

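The authors deposited 4 tables of expected counts, the reads RSEM assigns to each gene, made with their TOIL pipeline. The submitters' processing notes name cutadapt, FastQC, STAR, RSEM and hg38, with no versions. All 24 columns matched a sample. Protein-coding rows were kept by GENCODE 29, in which 36628 of the 60448 table symbols were found and 936 more under an older symbol, and which gave all gene coordinates. The expected counts were rounded to whole numbers (PLAU had non-whole counts in 21 libraries, ANXA2 in 22 and SERPINB2 in 1). Genes were filtered by edgeR's filterByExpr, scaled by TMM and tested by the quasi-likelihood method of edgeR 4.0.16 in R 4.3.3, with Benjamini-Hochberg adjustment over all genes tested and a threshold of 0.05. SE came from the F statistic. Log2 levels used a prior count of 2. Total counts per library ran from 9035970 to 52851374.

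Each comparison was fitted on its own groups without the 3 low-depth libraries. Alternatives were DESeq2 1.42.0, RLE size factors, other filters, all gene rows, left-out libraries, low-depth libraries kept in, wider fits, a term for the table, a replicate block and ComBat-seq (sva 3.50.0) before DESeq2. Fits within 1 RWPE-1 table were added after seeing the data. Scripts were tested on simulated counts. The genes given are the 8 members, the 2 largest rises and falls among 26 further genes (adjusted p below 0.05, mean of at least 1 CPM) and the 2 genes most like each member. These members, lists and rules were chosen with earlier results of these data known. The transcript of the overexpressed kinase is not reported here. The site of the 2 lines numbered R075 was not used, since in each the title and the treatment label name different sites. The line titled thymus R075 has a bone treatment label, and the line titled bone R075 has a thymus one. Promoters are those of RefSeq, GRCh38.p14.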

Additional observations from a re-analysis of the deposited data

Results flagged for a closer look

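In 24 group-by-gene tests for a library far from the rest of its group, where chance marks about 1 in 20, the following stood apart. PLAUR in the RWPE-1 line Spine2 was at 29.1 CPM, with the other 6 metastasis-derived lines at 15.1 to 18.7 CPM. ANXA2 in the RWPE-1 line Bone4 was at 1660.2 CPM, with the others at 2489 to 2887 CPM. PLAT in the low-depth BPH-1 line bone R075 had a count of 0, with the other BPH-1 metastasis-derived lines at 4.20 to 16.2 CPM, and at its depth a count of 0 allows up to 61.0 CPM.

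The change from C-Raf parental cells to metastasis-derived lines differed between the cell lines by an interaction test for PLAT, 2.22 on the log2 scale (RWPE-1 minus BPH-1, adjusted p = 0.00294 by edgeR), and for SERPINB5, -1.74 (adjusted p = 0.00170 by edgeR, and 0.191 with the low-depth lines kept in).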

How the results depend on the processing

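Of 936 gene values under an alternative, 855 kept their direction and side of the threshold, 13 lost and 27 gained a call in the same direction, and 41 changed sign, 2 of them with a call gained. The SERPINB5 call of BPH-1 metastasis-derived lines was lost without R069 or any 1 parental library and with low-depth lines kept in, and the SERPINB5 interaction was lost with low-depth lines kept in (-1.12, adjusted p = 0.191 by edgeR). In BPH-1 the metastasis-derived lines had a table of their own, and vector control and parental cells shared another. Tables split the groups in RWPE-1, and the low-depth lines limit most single genes to a few counts. Causes were not tested.

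Same-numbered BPH-1 replicates did not deviate together (correlations 0.0457, -0.0480 and -0.0378), and a replicate block left 7 of the 8 genes called for C-Raf in BPH-1, among 7682 genes.

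Genes of the 8 called were, for C-Raf in BPH-1, 0 with all BPH-1 libraries in 1 fit, which called 377 genes in all. For BPH-1 metastasis they were 1 with low-depth lines kept in, among 2101 genes in all. With a library left out they were 1 to 6, among 1960 to 8317 genes in all. For C-Raf in RWPE-1 they were 2 by DESeq2 and 0 to 4 with a library left out, and for RWPE-1 metastasis 1 by DESeq2. The interaction had 1 with low-depth lines kept in, among 4180 genes in all. With a library left out it had 2 to 5, among 5502 to 7512 genes in all. Pooled C-Raf had 5 by DESeq2 (454 genes in all), 4 after ComBat-seq (351 in all) and 1 with RLE size factors. Pooled metastasis had 1 by DESeq2 (952 genes in all) and 1 after ComBat-seq (1277 in all).

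Signs changed with a library left out, as log2 ranges. For C-Raf in BPH-1 it was S100A10 (-0.0263 to 0.0065). For BPH-1 metastasis they were PLAU (-1.79 to 0.90), PLAUR (-2.07 to 0.16), SERPINB2 (-1.98 to 1.21) and SERPINE2 (-0.14 to 0.99). For RWPE-1 metastasis they were S100A10 (-0.10 to 0.0115), ANXA2 (-0.0016 to 0.13), PLAUR (-0.38 to 0.0049) and PLAT (-0.0237 to 0.29). For bone they were PLAU (-0.23 to 0.31) and SERPINB2 (-0.27 to 0.95). In the interaction they were PLAU (-1.29 to 1.43), PLAUR (-0.34 to 1.93), SERPINB2 (-0.0422 to 3.18) and S100A10 (-0.95 to 0.0022).

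Other settings also turned signs. With low-depth lines kept in, BPH-1 metastasis gave PLAU -0.48, S100A10 -0.0940 and SERPINE2 -0.19, and S100A10 gave -0.0081 for pooled C-Raf and -0.0127 for pooled metastasis. S100A10 gave 0.0015 for C-Raf in BPH-1 over all gene rows and 5.18e-04 with all BPH-1 libraries. With a term for the table it gave 0.0424 for C-Raf in RWPE-1 and -0.27 for bone. ANXA2 gave 0.0173 for pooled metastasis after ComBat-seq. Within the second of the RWPE-1 tables, the S100A10 value was 0.16 for metastasis and -0.26 for bone. Within the first, metastasis gave PLAU 1.34, PLAUR 0.52, ANXA2 -0.0411 and SERPINB5 0.0377.

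Counts of all genes called moved by over 1.5 times. They ran from 377 to 8248 over all settings for C-Raf in BPH-1, 1960 to 8317 for BPH-1 metastasis, 0 to 747 for C-Raf in RWPE-1, 2 to 181 for RWPE-1 metastasis, 0 to 243 for bone, 4180 to 7512 for the interaction, 37 to 454 for pooled C-Raf and 17 to 1277 for pooled metastasis.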
